A study of Mus musculus with 2 samples.

Results

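The genes described here encode subunits of RNA polymerases I, II and III, subunits of Mediator and general transcription factors. They were chosen by symbol alone: Polr1, Polr2 or Polr3 with a letter, Taf or Med with a number, Gtf2 or Gtf3, and Tbp, with Taf7l left out. The rule gave 105 of the 21260 protein-coding genes analysed. No binding value entered the choice, but it was made with earlier results of these data known.

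NRF1 (nuclear respiratory factor 1) was immunoprecipitated from CH12.LX, an immortalized mouse B-cell lymphoma line of strain B10.H-2aH-4bp/Wts labelled female, and the bound DNA was sequenced. The 2 libraries are labelled biological replicates 1 and 2 and form 1 group without a named treatment, so no conditions can be compared. A control library was not analysed here. Peak lists hold no expression values, so the identity of the line could not be checked from them.

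NRF1 binds GC-rich promoter DNA as a dimer and is best known as a regulator of nuclear genes for mitochondrial and other housekeeping proteins. RNA polymerase I transcribes the large ribosomal RNA precursor, polymerase II the messenger RNAs, and polymerase III transfer RNAs, 5S ribosomal RNA and other small RNAs. TFIID, which holds the TATA-binding protein Tbp and the Taf proteins, recognises polymerase II promoters. Mediator links activators to polymerase II, and the Gtf genes encode most of the remaining general factors of polymerases II and III.

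The NRF1 consensus is a 10-base site that reads GCGCATGCGC, a palindrome, or GCGCACGCGC, which is GCGCGTGCGC on the other strand. The windows below show sites found at promoters of strong members of each complex, and then summits without one. Each is 30 bases long and runs 5′ to 3′ on the strand of the gene, and capitals mark the site. Substitutions are counted from 1 at the 5′ end of the site, with the consensus base first. The sequences are from the RefSeq promoters of GRCm38.p6 (mm10), where 91 of the 105 members had an entry.
Polr2h, polymerase subunit, chr16:20717775-20717804, plus strand, exact site: tgcagcccgtGCGCACGCGCcctcggcctc
Med26, Mediator, chr8:72548378-72548407, minus strand, exact site: gcgcctgcgcGCGCGTGCGCacaatcaata
Med18, Mediator, chr4:132464007-132464036, minus strand, exact site: cccgaaccttGCGCGTGCGCtcttgcacac
Polr2j, polymerase II, chr5:136116553-136116582, plus strand, G1A: ttctaaactgACGCATGCGCacggctcgcc
Taf1a, SL1, chr1:183388896-183388925, plus strand, G1A: gggcgtggccACGCATGCGCactacctgaa
Gtf2f1, TFIIF, chr17:57011291-57011320, minus strand, G1A: tcaggctctaACGCATGCGCagagagttag
Polr3k, polymerase III, chr2:181864219-181864248, plus strand, G3A: ggagacgtgtGCACACGCGCagaaacgaca
Polr1c, polymerases I and III, chr17:46248204-46248233, minus strand, C2A: cccgtcgctgGAGCACGCGCgcgtgggaag
Gtf3a, TFIIIA, chr5:146948567-146948596, plus strand, C8T: agtcctggatGCGCATGTGCaaccgggctc
Med7, Mediator, chr11:46436835-46436864, plus strand, C8T: atgcgaaagtGCGCATGTGCaacatcttta

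A further set shares the same change inside the core of the site, T6G, which is A5C when the site is read on the other strand. It is shown because it recurred in more of these promoters than any other form.
Gtf3c1, TFIIIC, chr7:125707694-125707723, minus strand, T6G: gcggcgaggtGCGCAGGCGCcccgggcgct
Med11, Mediator, chr11:70451886-70451915, plus strand, T6G: agtggcctctGCGCAGGCGCacattaacag
Polr2e, polymerase subunit, chr10:80039728-80039757, minus strand, T6G: ccagcccttgGCGCAGGCGCactgccgggg
Gtf2h5, TFIIH, chr17:6079817-6079846, plus strand, T6G: atgacgtacgGCGCAGGCGCagtgagtcgg
Taf12, TFIID, chr4:132274301-132274330, plus strand, A5C: agtaccatctGCGCCTGCGCtagtgaggcg

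The last windows are centred on the summits of members with no site of up to 1 mismatch in the RefSeq promoter, and so hold no capitals. Polr1a and Med9 had strong peaks, and Tbp and Polr2l weak ones.
Polr1a, polymerase I, chr6:71909045-71909074, plus strand: cgcacgcaagcgcagtggaaaaacacatgg
Med9, Mediator, chr11:59948163-59948192, plus strand: gcccagggcgcagactcagagttttttccc
Tbp, TFIID, chr17:15499868-15499897, plus strand: caacaaatcggactgcagtcaagagcgcaa
Polr2l, polymerase subunit, chr7:141475241-141475270, minus strand: gcagggctgcggcgggattcagggagatgc

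Most of these promoters carried NRF1. A gene is called occupied here when the summit of a peak of the optimal set lies within 1000 bp of its transcription start site (TSS, the 5′ end of the gene). The optimal set was selected by the authors with the irreproducible discovery rate (IDR), a measure of how well peak ranks recur. A peak of this set need not be present in both replicates: Polr2k had none in replicate 1. Of the 105 members, 87 were occupied, which is 82.9% (95% Wilson interval 74.5 to 88.9%), against 36.8% of all 21260 genes. Intervals cover counting error only, and genes are not independent replicates. When each replicate was taken alone, with as many of its strongest peaks as the optimal set holds (17547), 83 of the 87 were occupied in both.

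Peak signal, the value of the authors' caller for a peak, varied about as widely among the members as among all genes. Its scale is not stated by any source at hand, so it serves only to order peaks within a list. The strongest promoter peak of each occupied member had a median signal of 218 (quartiles 46.3 and 477, range 16.3 to 669), against 85.5 (quartiles 35.9 and 418) over all 7826 occupied genes. The members split into strong and weak peaks with few between: 45 lay above 200, 37 below 100 and 5 in the interval. Over all occupied genes the counts were 2958, 4135 and 733. These limits were set after the values were seen.

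All 5 polymerase I genes and all 13 polymerase II genes were occupied (Wilson intervals from 56.5% and 77.2% upward). Polymerase III had a peak at 9 of 10 (90%), Mediator at 26 of 30 (86.7%), TFIID at 14 of 20 (70.0%, interval 48.1 to 85.5%) and SL1, the promoter factor of polymerase I, at 2 of 4. The TFII factors had one at 12 of 16 and the polymerase III factors TFIIIA and TFIIIC at 6 of 7. The intervals of all 8 lists overlap, so counts this small do not separate the complexes from each other. The lists follow symbols and are not complete. Cd3eap, Znrd1 and Twistnb, polymerase I subunit genes with other names, and Crcp of polymerase III are left out of them. Their signals were 79.6, 42.5, 21.4 and 295, and they are counted below with the other factors.

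**Figure D1:**
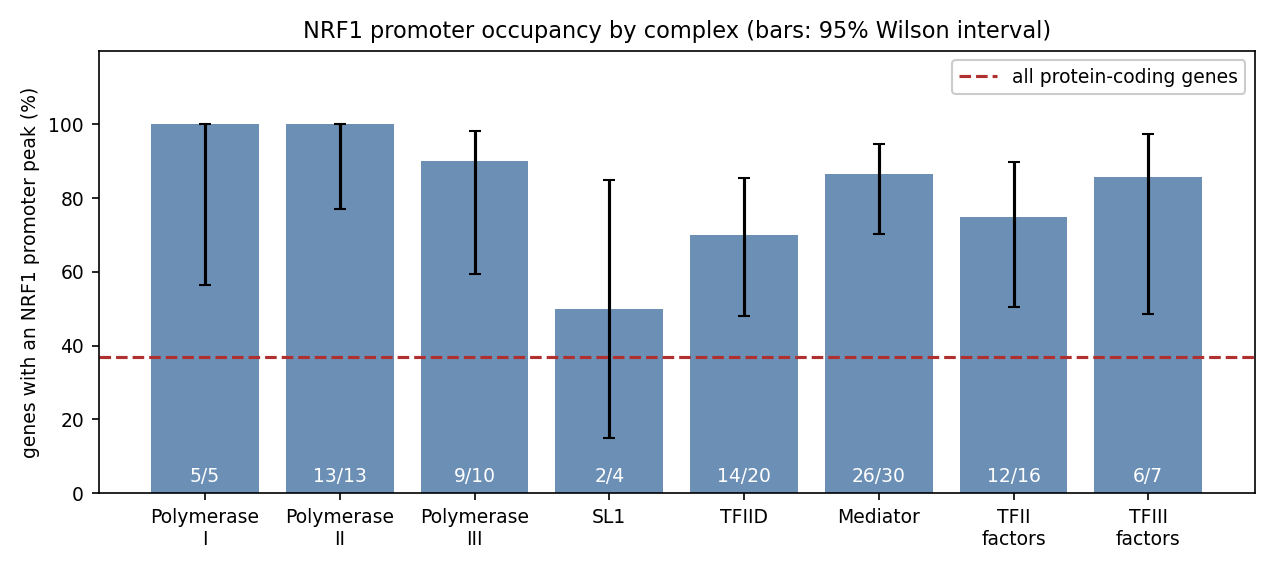
Bars give the percentage of genes in each complex with an NRF1 promoter peak, with 95% Wilson intervals and the counts at the foot; the dashed line is the 36.8% of all protein-coding genes. Both polymerase I and polymerase II reach 100%, and SL1 (2 of 4) and TFIID (14 of 20) are the lowest bars.

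Median signal also varied between the complexes. Over the genes listed by symbol, the median was 380 for polymerase II, 108 for polymerase I and 50.7 for polymerase III. In the relaxed peak of each replicate that overlaps the pooled one, replicate 1 gave medians of 193.7, 73.5 and 26.5 in that order, and replicate 2 gave 198, 34.0 and 25.8, so polymerase II was highest and polymerase III lowest in each. The order of polymerases I and III turned with the window: with summits within 500 bp their medians were 41.7 and 50.7. Replicate lists carry values near 50% of those in the pooled list and are compared only with themselves. TFIID and Mediator had medians of 237 and 238, but 163 and 337 with summits within 500 bp. TFIIIA with TFIIIC had 400. The quartiles of the polymerases overlapped, at 45.1 and 559 for II, 28.7 and 325 for I, and 45.5 and 84.1 for III. Single genes of every complex overlapped: polymerase II ran from 16.3 to 669 and polymerase III from 21.1 to 330.

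**Figure D2:**
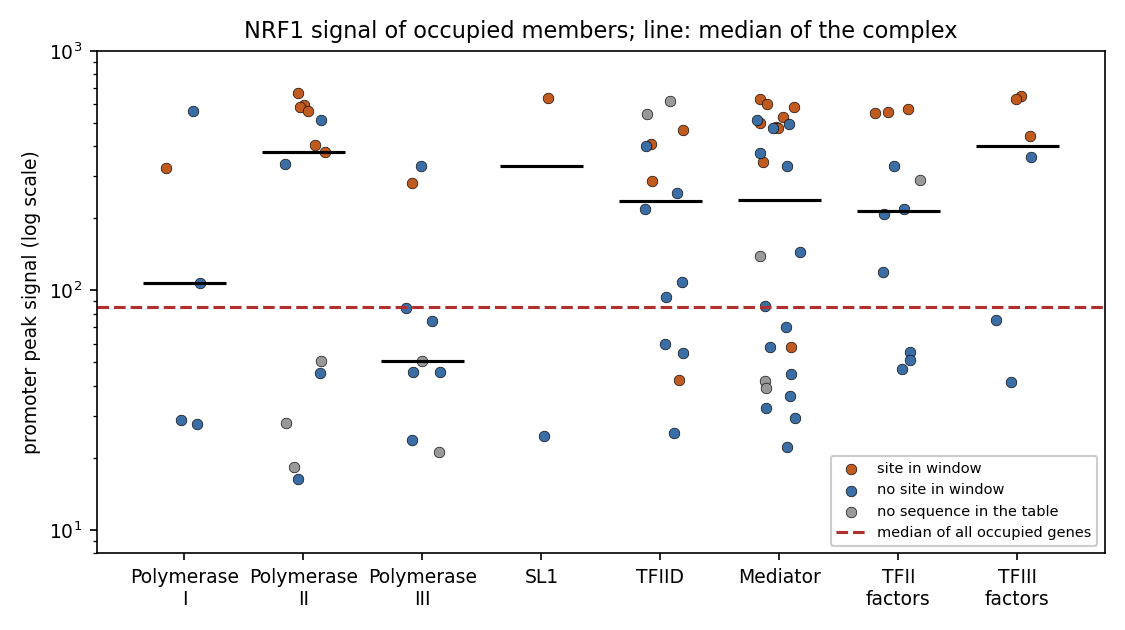
Each point is an occupied member, placed by the signal of its strongest promoter peak on a log axis and coloured by whether a site of up to 1 mismatch lies in its RefSeq promoter. Black lines are medians of the complex and the dashed line is the median of all occupied genes (85.5); most points of polymerase III lie below it, and most of the points with a site lie above 200.

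Among polymerase II genes the strongest peak of the whole member list stood at Polr2j, a subunit of the polymerase II assembly platform. The peak spans chr5:136116387-136116743 (mm10), and its summit lies 113 bp before the TSS. Its signal was 334 in replicate 1 and 339 in replicate 2 (mean 336.5 ± 3.92 SD, n = 2), and 669 in the pooled list, above 99.7% of occupied genes. Polr2c, the partner of Polr2j in that platform, had 170 and 168 in the replicates.

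The catalytic core of polymerase II was also bound. Polr2a, which encodes the largest subunit with the C-terminal repeat domain, had 259.5 and 255.9 in replicates 1 and 2. That peak lies 424 bp after the TSS used here, the only RefSeq start of the gene. A weaker peak of 56.3 lies 114 bp before that TSS. Polr2b, the second largest subunit, had 179 and 206. The replicates were close for both genes.

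At Polr2a the sequence around the peak could be read only on mm9, in a separate peak set with its own scale. There 2 sites flank the summit, 28 and 29 bp from it. In that order they lie 35 bp after and 22 bp before the nearest start of the GENCODE annotation. The mm9 summit is thus close to an annotated start, unlike the distance from the RefSeq TSS.
Polr2a, mm9 chr11:69571733-69571762, minus strand, A5C: agcgaggtttGCGCCTGCGCagcgcgcctg
Polr2a, mm9 chr11:69571675-69571704, minus strand, G9C: tccggggacaGCGCATGCCCgctgcgcacc

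Weak peaks also occurred in polymerase II. The stalk subunit genes Polr2d and Polr2g had 50.8 and 27.9 in the pooled list, and Polr2m, whose product makes polymerase II depend on Mediator, had 45.1. Polr2i, a small subunit active in transcript cleavage and fidelity, lay at the other end with 404.

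The 5 subunits that all 3 polymerases share formed 2 sets far apart. Polr2e had 313 and 282 in the replicates, Polr2h 291 and 293, and Polr2f 281.5 and 280.6. Polr2l had only 16.6 and 11.2, and Polr2k had 15.4 in replicate 2 and no peak in replicate 1. The pooled values of 594, 582 and 559 for the first set thus stand against 16.3 and 18.3 for Polr2l and Polr2k, with no overlap in either replicate. Neither Polr2k nor Polr2l was in the conservative IDR set, the stricter of the deposited mm10 sets.

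Polymerase I genes divided in the same manner. Polr1a, the largest subunit and part of the active centre, had 297 and 261.5 in the replicates (mean 279 ± 25.4 SD, n = 2). Polr1b, the second largest subunit, had 14.43 and 14.01. Both were occupied and both replicates gave the same order, so the genes of the paired catalytic subunits lay at opposite ends of the scale. Polr1e, part of a subcomplex that aids initiation and elongation, had 16.5 and 15.2.

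Polr1c and Polr1d form the assembly platform shared by polymerases I and III. Polr1c had 170 in replicate 1 and 155 in replicate 2. Polr1d had 73.5 and 34.0, a ratio above 1.5, with a summit 781 bp after the TSS and a nearer peak of 41.7 at 27 bp before it. Polr1d is the gene whose value is the median of polymerase I, so the choice of peak sets that median.

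Polymerase III was the complex with the largest share of weak peaks: 7 of its 9 occupied genes lay below 100, or 77.8%. The share was 38.5% in polymerase II, 42.5% over all occupied members and 52.8% over all occupied genes. Polr3b, the second largest subunit, had 176 and 152, and Polr3k, a small subunit needed for transcript cleavage and termination, had 147.5 and 134.7. The replicates kept these 2 genes above every other polymerase III gene. Polr3a, the largest subunit, had 13.6 and 6.89 and the lowest pooled signal among its occupied genes (21.1), and it was lost when replicate 2 was taken alone.

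The initiation subunits of polymerase III were weak as well. Polr3c had 24.2 and 22.8, Polr3f 11.7 and 10.2, and Polr3g 26.5 and 14.02. Polr3gl, the paralog of Polr3g, had 49.7 and 28.03. Polr3g was thus below Polr3gl in each replicate, while replicate 1 of Polr3g was close to replicate 2 of Polr3gl. Polr3d and Polr3e, which act together in termination and reinitiation, had pooled signals of 50.7 and 84.1. Polr3e had its stronger peak 976 bp after the TSS, at the edge of the window, and another of 73.4 at 117 bp before it.

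**Figure D3:**
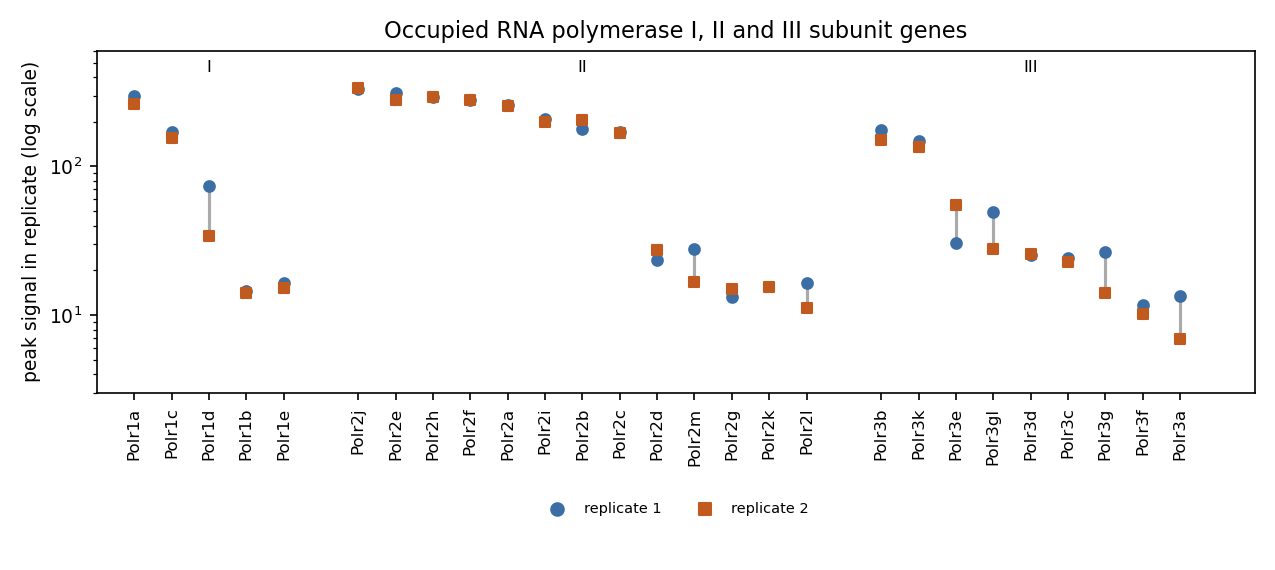
Signal of the promoter peak in replicate 1 (circles) and replicate 2 (squares) for the occupied subunit genes of polymerases I, II and III on a log axis. Most polymerase III genes lie below 100 in both replicates, and Polr1a and Polr1b, or Polr2e and Polr2l, lie far apart.

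SL1 joins Tbp to 4 Taf1 proteins at the ribosomal RNA promoter, and its genes ran from among the strongest to none. Taf1a had 313 and 323 in the replicates (mean 318 ± 6.59 SD, n = 2), above 97.8% of occupied genes in the pooled list. Taf1c had 15.3 and 4.39, though replicate 2 had another peak of 16.6 within 1000 bp of the TSS. Taf1c was outside the conservative set. Taf1b and Taf1d had no peak in the optimal set, and their pooled relaxed values were 4.80 and 7.11.

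Tbp itself, which serves all 3 polymerases, had a modest peak. Its signal was 31.7 in replicate 1 and 22.4 in replicate 2, and 54.7 in the pooled list, with the summit 5 bp before the TSS. That lies below the median of all occupied genes.

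Among TFIID genes the strongest was Taf4b, a Taf4 paralog known from germ cells and B cells, with 314 and 307. Taf7, which binds the largest subunit Taf1, had 273 and 277. Taf12, the histone-fold partner of Taf4, had 243 and 226. All 3 lay above 200 in each replicate. Taf4 had 142 and 144, so Taf4b was higher in each replicate.

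The histone-fold and scaffold genes covered the whole range. Taf6 had 227 and 182 and Taf13 had 220.5 and 183.7. Taf5, a scaffold with WD repeats, had 135 and 120.5 at a summit 723 bp after the TSS, and 59.7 in the pooled list at a nearer peak, 9 bp after it. Taf11, the partner of Taf13, had 102 and 119. Taf8, Taf3 and Taf10 had pooled values of 108, 93.5 and 59.7. Taf11 and Taf13 form a histone-fold pair, and Taf13 had the higher signal in each replicate.

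Taf5l, Taf6l and Taf15, listed with TFIID here by symbol, belong to other assemblies and were weak or unoccupied. Taf5l and Taf6l encode subunits of the SAGA coactivator. Taf5l had 25.5 and 18.3 against the 135 and 120.5 of its TFIID paralog Taf5. Taf6l had 7.81 and 18.1 against 227 and 182 of Taf6, and it was lost when replicate 1 was taken alone. Taf15, a FET-family RNA-binding protein, had no peak in the optimal set, yet 28.8 and 22.8 in the replicates and 32.6 in the pooled relaxed list. Without these 3 and Taf7l2, TFIID had 12 of 16 occupied (75%) and a median of 271.

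The TFIID genes without a peak were Taf1, Taf2, Taf9, Taf9b and Taf7l2, besides Taf15. Taf1, the largest subunit, and Taf7l2 had no relaxed peak near the TSS in any mm10 list. Taf2, which contacts the initiator element, had 12.6 in replicate 1, enough for a call there, and 7.77 in replicate 2. Taf9 had 4.59 and 9.39. Taf9b had a peak of 44.5, but 1513 bp after the TSS, outside the window.

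Mediator genes were mostly occupied in the head, middle and tail modules. The head, which contacts polymerase II, had 11 of 12 with a median of 331. The middle module had 7 of 8 with a median of 516, and the tail, where many activators bind, 6 of 6 with a median of 113. Of the Med genes of the kinase module, which binds the core reversibly, 2 of 4 were occupied, both below 100. Replicate 1 gave medians of 184, 262, 58.5 and 15.9 in that order and replicate 2 gave 144, 247, 53.7 and 25.1, so the order was the same.

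In the middle module Med26, which recruits elongation factors and marks the polymerase-bound form of Mediator, was strongest with 308 and 324 (mean 316 ± 11.1 SD, n = 2). Med7 had 290.5 and 291.2, Med4 253 and 278, Med9 271 and 247, and Med31 262 and 238. These 5 genes lay within a narrow band that did not reach down to Med21 at 93.2 and 56.1. The mm9 set, on its own scale, spread the same 5 genes from 1359 (Med31) to 3565 (Med4). Med1, the subunit contacted by nuclear receptors, was the lowest occupied gene of the module with 26.9 and 21.3. Med10 had no relaxed peak near the TSS in any mm10 list.

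In the head Med11 led with 298 and 304, followed by Med18 with 241 and 261 and Med17, the scaffold of the head, with 237 and 246. Med28 had 256 and 221, Med20 184 and 190.5, and Med22 189 and 144. Below them was a gap: Med27, the next gene, had 33.9 and 38.7. Med6, Med8, Med29 and Med19 had pooled values of 58.2, 39.0, 32.3 and 29.3. Med30 was unoccupied in the optimal set and had a peak of 17.4 in the conservative set, the only member that this set added.

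The tail held 2 strong genes, Med25 with 230 and 241.5 and Med15 with 174 and 170. Med24 followed with 67.2 and 70.8, Med16 with 49.8 and 36.6, and Med23 with 16.9 and 21.2. Med14, the backbone that joins the modules, had 25.6 and 14.2 at a summit 617 bp after the TSS. Med14 and Med13 were the members lost when the window was narrowed to 500 bp.

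In the kinase module Med13, which tethers the kinase to the core, had 20.5 and 39.2 at a summit 625 bp before the TSS. Its paralog Med13l had 11.3 and 10.9. Med12 and Med12l, the activators of the kinase, had no peak in the optimal set, and Med12 had 4.94 and 3.47 in the relaxed replicate lists. The other genes of the module carry no Med symbol: the kinase genes Cdk19 and Cdk8 had pooled signals of 392 and 42.4, and the cyclin gene Ccnc was unoccupied.

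**Figure D4:**
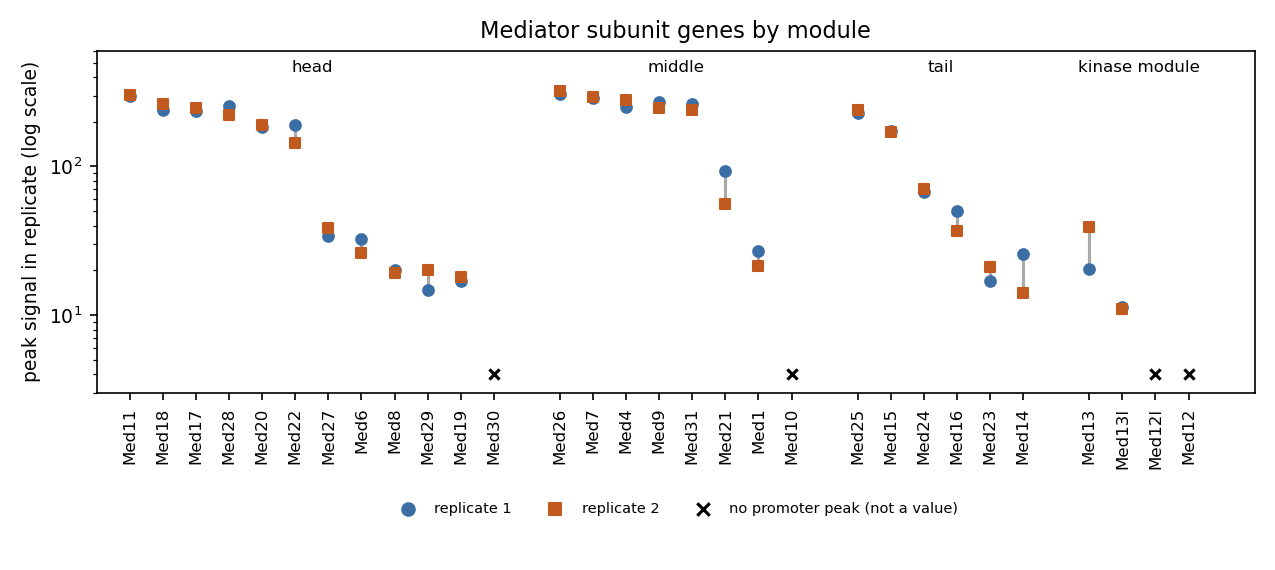
Signal of the promoter peak in replicate 1 (circles) and replicate 2 (squares) on a log axis for the 30 Mediator genes, grouped by module; crosses mark genes without a promoter peak and carry no value. A band of head and middle genes lies above 100 in both replicates, while the occupied kinase-module genes lie below 40.

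General factors of polymerase II were occupied at 12 of 16 genes with a median of 214. Both TFIIF genes, whose products escort polymerase II to the promoter, had strong peaks: Gtf2f1 had 267 and 293, and Gtf2f2 had 280 and 277. The 2 partners thus differed by less than the replicates of Gtf2f1 in these lists. The mm9 set, on its own scale, gave them 6223 and 2798. Gtf2b, the TFIIB protein that bridges Tbp and the polymerase, had 189 and 141.

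TFIIE showed unequal partners, with 181 and 111 at Gtf2e2 and 24.2 and 31.3 at Gtf2e1. The TFIIA genes Gtf2a1 and Gtf2a2 had pooled values of 219 and 208.5. In TFIIH, the helicase and kinase factor, Gtf2h5, its smallest subunit, had 301 and 276, while Gtf2h1 had 50.1 and 70.3. Gtf2h3 and Gtf2h2 had pooled signals of 51.3 and 47.1. Gtf2h4 had no peak in the optimal set, 5.75 in replicate 1 and 12.8 in replicate 2, where it was called.

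The TFII-I family, of sequence-specific factors despite its name, was the least occupied. Gtf2ird1 had 9.95 and 7.10, the lowest replicate mean among the occupied genes with both values. Gtf2i and Gtf2ird2 had no peak at the TSS used, and neither had Gtf2a1l, a TFIIA paralog known from testis.

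These 3 genes had strong peaks at other annotated start sites, 2854 bp after the TSS in Gtf2i (411), 1651 bp in Gtf2ird2 (448) and 3157 bp in Gtf2a1l (247). At Gtf2i the RefSeq promoter of that other start holds an exact consensus site.
Gtf2i, TFII-I family, chr5:134314784-134314813, minus strand, exact site: tgctgcttgtGCGCACGCGCagcggcacct
The calls of unoccupied members thus depend in part on which start is used. Counting a peak at any RefSeq start raised the TFII factors to 15 of 16, TFIID to 16 of 20 and all members to 92 of 105 (87.6%), against 39.9% of all genes. The added members were Gtf2a1l, Gtf2ird2, Gtf2i, Taf1 (6.99) and Taf9b.

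TFIIIA and TFIIIC, factors that bring polymerase III to its promoters, held both strong and weak genes. Gtf3c1, the TFIIIC subunit that binds the internal promoter of transfer RNA genes, had 325 in each replicate (mean 325 ± 0.488 SD, n = 2). Gtf3a, the TFIIIA factor of the 5S ribosomal RNA gene, had 314 and 318, and Gtf3c2 had 230 and 213.5. The lowest of these 3 was above the highest polymerase III gene, Polr3b, in each replicate.

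The other TFIIIC genes were mixed. Gtf3c6 had 188 and 170, Gtf3c5 had 19.9 and 54.8, and Gtf3c3 had 22.5 and 17.4. Gtf3c5 differed between replicates by more than 1.5 times. Gtf3c4 had no peak in the optimal set and 5.32 and 6.85 in the relaxed replicate lists.

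Replicates agreed more closely at strong peaks. Of 86 occupied members with a peak in both replicates, 70 had values within 1.5 times of each other and 16 did not. Of those 16, Gtf2e2 and Gtf2a1 lay above 200 in the pooled list. Taken alone, replicate 1 gave 88 occupied members, against 38.0% of all genes; it lacked Polr2k and Taf6l and added 3, among them Taf15 and Taf2. Replicate 2 alone gave 87, against 36.7% of all genes; it lacked Polr3a and Gtf2ird1 and added Taf15 and Gtf2h4. No member above 100 was lost in either.

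Stricter sets removed weak members. The conservative set left 81 members (77.1%), against 35.6% of all genes, and lost Polr3a, Polr2k, Taf6l, Med13l, Gtf2ird1, Polr2l and Taf1c. Only the 8773 optimal peaks of higher signal left 73 (69.5%), against 26.9%. Summits within 500 bp left 85 (81.0%), against 33.7%, and within 2000 bp there were 89 (84.8%), against 39.2%. With the mm9 set and all GENCODE start sites, 80 of 104 members were occupied (76.9%), against 35.3% of all genes. That set had no peak at Polr2i and Polr2b, which had 404 and 380 on mm10.

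CpG-rich promoters are bound by NRF1 more often than others, so the members were also read within that class (GC above 0.5 and CpG observed over expected above 0.6 in the 1000 bp around a start). Of 85 CpG-rich members 72 were occupied (84.7%), against 63.8% of all CpG-rich genes. Of the 19 members that missed at least 1 of these limits 14 were occupied (73.7%), against 15.1% of all such genes. They included strong peaks at Taf7, Taf6 and Taf13, of which Taf7 and Taf13 missed only the GC limit, at 49.4% and 48.9%, while Polr2k, Polr1e, Polr2g and Polr1b among them were below 30.

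Sites in the promoter sequence went with strong peaks. The RefSeq window runs from 250 bp before to 50 bp after a start, and both strands were searched. An exact consensus site was present in 3 of 76 occupied members with sequence (3.95%): Med26, Med18 and Polr2h, shown above. Of 15 unoccupied members 1 had one (6.67%), Gtf2i, in the window of its other start, where a peak of 411 lay. All occupied genes had 7.74% and all genes 3.31%. With up to 1 mismatch, 28 of the 76 had a site (36.8%), against 2 of 15 unoccupied members, 27.2% of all occupied genes and 13.3% of all genes.

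The median signal was 513 with such a site and 74.8 without, compared with 496 and 54.3 over all occupied genes. Of 42 members above 200, 26 had a site (61.9%, against 55.7% of all genes in that class). Of 30 members below 100, 2 had one (6.67%, against 7.71%): Med13 and Taf5l, whose sites lie 436 and 342 bp from the summit. By complex, a site was found in 6 of 10 polymerase II, 1 of 5 polymerase I, 1 of 7 polymerase III, 4 of 12 TFIID and 9 of 23 Mediator genes. These are matches of letters, and binding to them was not tested.

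Most of the sites lay close to the summits, though that of Polr1c lies 210 bp away. From the nearest site, the summit of the 28 members was a median of 11 bp away, 19 lay within 20 bp and 5 over 100 bp. At Polr2j, for example, the G1A site shown above is 10 bp from the summit, and at Med11 and Gtf2h5 the T6G site is 4 bp away.

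The form GCGCAGGCGC, or GCGCCTGCGC on the other strand, was present in 10 of the 76 occupied members (13.2%), against 6.996% of all occupied genes and 3.09% of all genes. The 10 were Gtf3c1, Med26, Med11, Polr2e, Gtf2h5, Gtf2f2, Taf12, Gtf3c2, Polr2b and Taf4, with signals from 286 to 647. Their median was 563, against 537.5 over all occupied genes with the form. They span polymerase, Mediator, TFIID, TFII and TFIII genes. The form was picked for its frequency in these promoters, so its higher share among them is no independent result. None of 15 unoccupied members with sequence had it, but only 0.775% of all unoccupied genes did, so that count separates nothing.

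Strong peaks without a site were found too. Of the 16 members above 200 without a site in the RefSeq window, 8 had their summit outside it, among them Polr2a, Med31 and Taf5. The other 8 had the summit inside. Within 50 bp of the mm9 summit, 32 of 42 members above 200 had a site of up to 1 mismatch (76.2%), against 69.5% of all genes in that class. The 10 members without one were Polr1a, Med9, Med31, Taf13, Gtf3c6, Med22, Polr3b, Gtf2b, Polr1c and Taf5.

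Letters of other promoter factors were counted in the same windows. The ETS core CCGGAAG was present in 29 of 76 occupied members (38.2%), against 21.9% of all occupied genes and 12.1% of all genes. The YY1 core AAGATGGC was in 9.21%, against 6.16% and 3.23%. The SP/KLF core GGGCGG was in 63.2%, against 69.5% and 46.9%, and the NFY core CCAAT in 34.2%, against 40.0% and 39.6%. TATAAA, the letters of the TATA box that Tbp binds, was in 13.2%, against 5.92% and 13.4%. Both strands were searched for each, and the motifs may overlap.

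Summits clustered near the start. Of the 87 peaks, 59 lay within 100 bp of the TSS (67.8%, against 52.4% of all occupied genes), and the median distance was 57 bp, against 93 bp. The summit lay before the TSS at 51 members (58.6%, against 49.1%). Mediator had 20 of 26 before the TSS, 10 of 11 in the head, while polymerase I had 1 of 5 and polymerase II 6 of 13. Distances over 200 bp occurred at 21 of 87 members, against 2452 of 7826 occupied genes.

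**Figure D5:**
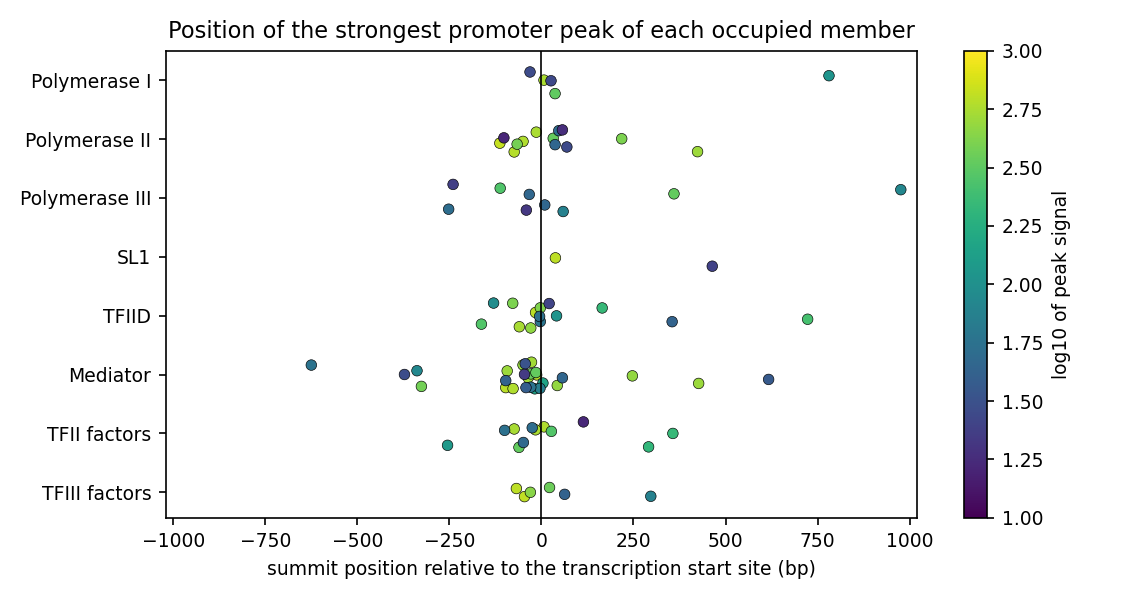
Each point is the summit of the strongest promoter peak of an occupied member, in bp from the TSS (negative is before it), by complex, with colour for log10 of the signal. Most points lie within 100 bp of the start (59 of 87), and Polr3e, Polr1d and Taf5 are the most distant after it.

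Many members share their peak with a neighbouring gene, so the peak cannot be given to either alone. The peak was also a promoter peak of another protein-coding gene at 25 of 87 members (28.7%, against 23.7% of all occupied genes). At 19 (21.8%, against 15.1%) the member and the nearest such gene run away from each other. The summit need not lie between their starts: at Polr1d it lies 781 bp after the TSS. Polr1a shares its peak with Ptcd3, a mitochondrial ribosome protein, Polr1c with Yipf3, and Polr2b with Noa1, a mitochondrial GTPase. Polr2h shares with Clcn2, Gtf2h5 with Serac1, Taf6 with Cnpy4 and Med22 with the ribosomal protein gene Rpl7a. Med29 shares its weak peak with Paf1, which encodes an elongation factor of polymerase II.

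Genes that act with these complexes showed a like occupancy. Over 77 such genes in 7 lists, 64 were occupied (83.1%, against 36.8% of all genes) with a median signal of 127. Among those with CpG-rich promoters 58 of 69 were occupied (84.1%), against 63.8% of all CpG-rich genes. Integrator, which cleaves small nuclear RNAs and promoter-proximal transcripts, had 11 of 14 with a median of 494, and Ints3 was strongest at 665. Elongation factors had 18 of 21, led by Nelfcd (674), a subunit of the pausing factor NELF.

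SAGA had 10 of 12, led by Tada2b (567), and polymerase assembly factors 5 of 6, led by Gpn3 (523). The kinase and helicase genes of TFIIH and Mediator had 7 of 8, led by the helicase Ercc2 (570), with Cdk7, the TFIIH kinase, at 13.8. Other polymerase I factors had 5 of 6, led by Ttf1 (314), which terminates ribosomal RNA transcription. Other polymerase III factors had 8 of 10, led by Snapc1 (410), a subunit of the factor that serves small nuclear RNA genes. The medians of these last 2 lists were 69.7 and 47.6, and that of the TFIIH and Mediator kinase list was 42.4, all below the median of all occupied genes.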

How the data were processed

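NRF1 peaks of CH12.LX cells (2 biological replicates, 1 group) were taken as the authors made them. Per notes deposited beside the lists, relaxed peak lists were called on mm10 per replicate and on pooled reads with a control, and IDR then selected a conservative and an optimal set; a separate mm9 set came from both replicates. The aligner, caller and thresholds were not given in the sources used here. Depth is unknown. Peak signal is the deposited value of the authors' caller, and deposited score columns were not used. Peaks on chromosomes 1 to 19 and X entered (17547 of the optimal set).

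TSS positions are 5′ ends of RefSeq genes (GRCm38.p6). Strand came from the RefSeq promoter table (17274 genes) or GENCODE vM1 (3986), which differed at 44 of 16309 genes with both, and 371 genes without strand were left out of 21631. Of 91 members with a RefSeq promoter, 65 had the window at the TSS used. Where a gene had several promoter peaks, the strongest was used. Counts carry Wilson intervals; no test was made, since there is 1 group. Members, lists and alternatives were chosen with earlier results of these data known, and any RefSeq start and the narrower TFIID list were added after seeing the data. Genes named by rule were every unoccupied member, the 3 strongest and 2 weakest occupied members of each list, members whose call changed with the replicate and the strongest of each other list, except 1 gene that is not reported here; further members were named after their values were seen. Python 3.11.15, pandas 2.3.3, NumPy 2.4.6 and matplotlib 3.10.9 were used, and the counting was tested on simulated data.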

Additional observations from a re-analysis of the deposited data

How the results depend on the processing

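Of 143 recomputed values, 106 stayed within their error and 37 moved. Every median signal with 1 replicate left out is counted as moved, because the replicate lists have a lower scale than the pooled list. Among the 37, SL1 occupancy turned from above that of all genes (2 of 4) to below it on mm9 (0 of 3). Taf1a, the strongest SL1 gene, had no matching entry there and was not scored. The NRF1 site share of occupied members turned from below that of unoccupied members to above it once a mismatch was allowed. The exact share of unoccupied members rested on Gtf2i alone (1 of 15), whose site lies at its other start, where a peak of 411 lay. The causes were not tested. Occupancy moved with the upper 8773 peaks by signal (all members 69.5%, polymerase II 76.9%, other genes of the pathway 62.3%), with mm9 (polymerase II 61.5%, SL1 0 of 3, TFII factors 93.75%) and with any RefSeq start (TFII factors 93.75%). Leaving out a replicate gave 82.9 to 83.8% for all members, 80.0 to 100% for polymerase III and 81.8 to 90.9% for other genes of the pathway. Median signals in the conservative set were 281 (all members), 404 (polymerase II), 62.7 (polymerase III), 633 (SL1) and 255 (TFIID). With summits within 500 bp they were 41.7 (polymerase I), 163 (TFIID) and 337 (Mediator), and within 2000 bp 218 (TFIID). With 1 replicate left out, on the scale of the replicate lists, they were 97.3 to 105.8 (all members), 34.0 to 73.5 (polymerase I), 193.7 to 198.2 (polymerase II), 25.9 to 26.9 (polymerase III), 164 to 169.6 (SL1), 102 to 119 (TFIID), 108 to 134 (Mediator), 89.1 to 122.8 (TFII factors) and 192 to 209 (TFIII factors). An exact NRF1 site was in 3.95% of occupied and 6.67% of unoccupied members, and one with up to 1 mismatch in 36.8% and 13.3%. No paired analysis was possible because the samples form 1 group. Small lists, unknown depth and 1 TSS per gene limit these values.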
